A study of Mus musculus with 16 samples.

Results

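Tbx21 and Eomes encode a pair of related T-box transcription factors, and the islands around both genes were examined in every library of the series. The Tbx21 window was chr11:96930001-97010000 and the Eomes window chr9:118360001-118430000, both on the mouse build mm9. An island is a run of enriched 200-bp windows joined across short gaps by the authors' caller. Every island that met a window was taken, which gave 112 of the 469755 islands in the 16 lists. The Tbx21 window held 67 of them, 27 from H3K27ac and 40 from DNase. The Eomes window held 45, of which 20 were from H3K27ac and 25 from DNase. One island, from DNase, reached beyond a window edge, and it was counted inside the window only. The windows were fixed by position, but the genes were chosen with earlier results of these data known.

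The CD4 T cells came from C57BL/6 mice with both Bcl11b alleles floxed (Bcl11b fl/fl) and CreERT2, a Cre recombinase that 4-hydroxytamoxifen (4-OHT) switches on, and all cells were grown under T helper 2 (Th2) conditions. Early KO cells were kept in this culture with 4-OHT for 4 days, and early WT cells for as long without it. For late KO cells, 4 days of priming without 4-OHT and a rest of 1 day in IL-2 came before 4 further days with 4-OHT, and late WT cells went through the same course with no 4-OHT at any step. Each group had 2 libraries of H3K27ac ChIP-seq, a mark of active promoters and enhancers, and 2 of DNase-seq, which maps open chromatin. All groups thus carried the floxed alleles and the recombinase, and no WT cells received 4-OHT, so loss of Bcl11b and exposure to 4-OHT cannot be told apart. By the labels the starting cells were naive, yet the sort they state is CD4+CD44high, and CD44 marks activated cells. They do not say whether the replicates were separate cultures or animals, so the tests measure only the spread between these libraries. The title sets Bcl11b, as a partner of GATA3, against the Th1 programme in Th2 cells, and the genes examined here belong to that programme.

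T-bet, the product of Tbx21, is the factor that directs CD4 T cells to the Th1 fate, and it switches on the interferon gamma gene Ifng. It also restrains the Th2 programme, in part by binding GATA3. Eomesodermin, the product of Eomes, is best known in CD8 T cells and natural killer cells, where it shares with T-bet the control of Ifng and of cytotoxic genes, while most CD4 T cells hold little of it.

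The sequences just upstream of both genes are shown because the windows are named for these genes. They are the 250 bases before each annotated gene start in RefSeq on GRCm38.p6, the only build with sequences at hand. Coordinates were not converted between builds, so no island is assigned to either promoter. Read 5′ to 3′ on the coding strand, with CG dinucleotides in capitals, the Tbx21 sequence is chr11:97115332-97115581 (minus strand) and the Eomes sequence chr9:118477939-118478188 (plus strand).
Tbx21: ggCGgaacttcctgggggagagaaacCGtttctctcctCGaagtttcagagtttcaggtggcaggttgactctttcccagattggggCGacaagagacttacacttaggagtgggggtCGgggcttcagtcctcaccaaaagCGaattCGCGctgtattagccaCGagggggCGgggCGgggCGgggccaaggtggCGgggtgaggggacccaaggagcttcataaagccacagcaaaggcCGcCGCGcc
Eomes: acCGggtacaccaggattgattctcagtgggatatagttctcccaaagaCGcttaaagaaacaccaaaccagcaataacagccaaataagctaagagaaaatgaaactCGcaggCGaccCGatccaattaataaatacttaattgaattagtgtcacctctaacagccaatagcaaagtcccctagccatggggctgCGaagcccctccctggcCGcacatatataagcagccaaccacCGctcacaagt
The Tbx21 sequence was 60.8% G or C with 16 CG dinucleotides, more than 74.6% of the 32851 promoters in the table. The Eomes sequence was 46.4% G or C with 8, more than 57.0% of them, and the median promoter had 6 CG dinucleotides and was 52.4% G or C. Neither sequence held, on either strand, the letters AGATAA (the GATA motif, in 9.99% of all promoters), TGTGGT (RUNX, in 14.0%), TCACACC (T-box, in 3.33%), CCGGAAG (ETS, in 6.91%) or TGANTCA (AP-1, in 6.75%). In the same annotation Tbx21 lies between Osbpl7 and Tbkbp1, and Golga4 follows Eomes.

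The lists gave no read counts, so no depth can be stated for any library, and where an island is missing the list merely lacks one. The 8 H3K27ac lists were of similar size, with 26548 to 32112 islands over 101 to 112 Mb. The DNase lists held 17397 to 39736 islands over 25.9 to 66.8 Mb, and the short ones were those of late KO, which averaged 26.1 ± 0.2 Mb, against 48.5 ± 5.4 Mb in late WT (SD, n = 2 each). Early KO averaged 40.3 ± 12.7 Mb and early WT 56.6 ± 14.5 Mb (SD, n = 2 each). Pairs of H3K27ac lists of the same group shared 70.3% to 78.0% of their covered windows, and pairs of DNase lists 45.7% to 53.9%.

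Around Eomes, more of the chromatin was in H3K27ac islands in KO than in WT cells at both stages. The islands covered 9.6 and 7.4 kb of the 70-kb window in early KO, against 1.6 and 1.4 kb in early WT. In late cells they covered 7.0 and 9.2 kb in KO, against 3.4 and 2.4 kb in WT. All 4 KO lists were thus above all 4 WT lists, with 8.30 ± 1.29 kb in KO and 2.20 ± 0.909 kb in WT (SD, n = 4 each; exact two-sided permutation test, p = 0.0286, the smallest value that 4 against 4 lists can give). The permutation test ignored stage, and each SD spans both stages. Set against all genome tiles of 70 kb, the log2 difference of KO over WT was 2.10 (SE 0.27) in early cells. It passed the test (limma, Benjamini-Hochberg adjusted p = 0.00245), as did 12.3% of the 13872 tiles in this direction. In late cells it was 1.32 (SE 0.27; limma, adjusted p = 0.0328), where 4.78% of tiles passed in this direction. This late call was lost when any of the 4 late libraries was left out (limma, adjusted p = 0.0542 to 0.163). Both calls also ended when the lower-scoring 50% of every list was dropped, with log2 differences of 0.54 and -0.13, and over the 8 other settings the adjusted p by limma ranged over 0.00123 to 0.0803 in early and 0.0192 to 0.811 in late cells. The difference between the late and the early KO effect was -0.77 (SE 0.38) and did not pass (limma, adjusted p = 0.306), where 9.03% of tiles passed. These fold values are on the log2(kb + 0.5) scale, after centring of each library.

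Around Tbx21 the same direction was seen, with a smaller difference. The H3K27ac islands covered 18.6 and 17.0 kb of the 80-kb window in early KO, against 12.8 and 15.6 kb in early WT. In late cells they covered 23.2 and 22.8 kb in KO, against 14.2 and 16.2 kb in WT. Every KO list was above every WT list, with 20.4 ± 3.08 kb in KO and 14.7 ± 1.52 kb in WT (SD, n = 4 each; exact two-sided permutation test, p = 0.0286). The permutation test ignored stage, and each SD spans both stages. The window nevertheless did not pass at either stage in the fit over all tiles. The log2 difference was 0.24 (SE 0.14) in early cells (limma, adjusted p = 0.278), where 21.9% of 12675 tiles passed in either direction. It was 0.16 without early KO replicate 1, 0.060 without early WT replicate 1 and 0.40 without early WT replicate 2. In late cells it was 0.55 (SE 0.14; limma, adjusted p = 0.0681), where 8.45% passed. Without early WT replicate 1 or without early WT replicate 2 the late difference passed (limma, adjusted p = 0.0376 and 0.0394). The late minus the early KO effect was 0.30 (SE 0.20; limma, adjusted p = 0.437), where 9.49% of tiles passed.

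**Figure D1:**
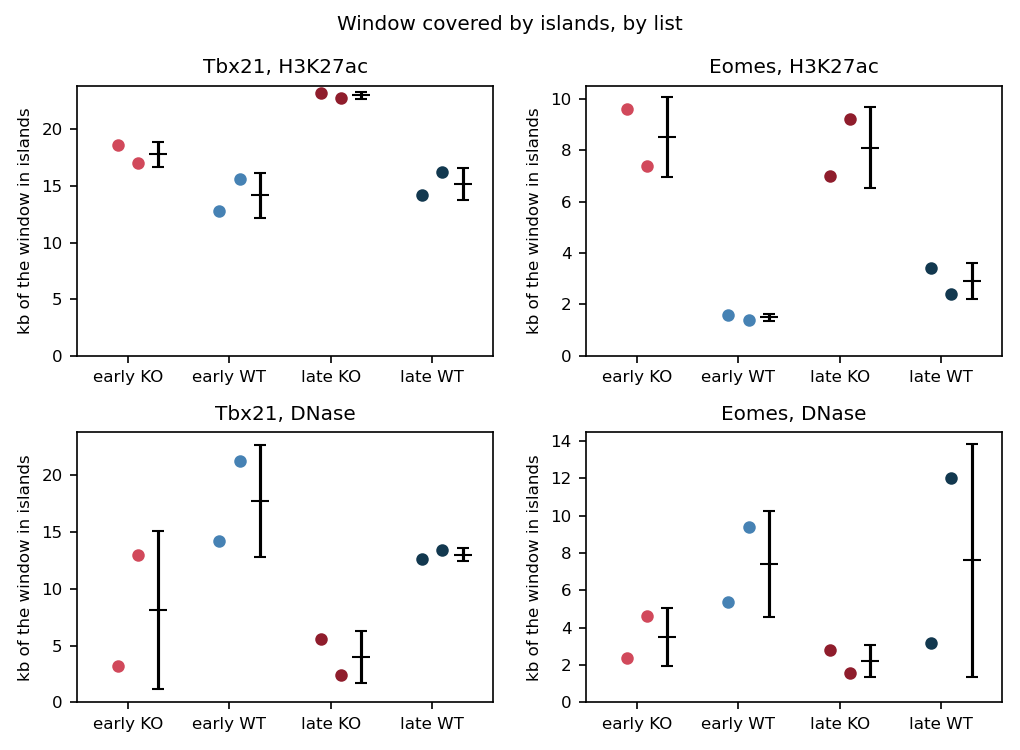
Kilobases of the Tbx21 window (left) and the Eomes window (right) covered by H3K27ac islands (top) and DNase islands (bottom), with 1 point per list and the mean ± SD of the 2 lists of each group in black. In the Eomes window the 4 KO lists lie between 7.0 and 9.6 kb of H3K27ac, above the 4 WT lists at 1.4 to 3.4 kb. The DNase lists of KO and WT there overlap only across stages, with KO below WT within each stage.

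The islands of the 8 H3K27ac lists merged into 9 regions, 4 in the Tbx21 window (T1 to T4, in order of position) and 5 in the Eomes window (E1 to E5). Of these, 6 were found in more KO than WT lists and 0 in more WT than KO lists. Over all 35909 H3K27ac regions of the genome the shares were 24.9% and 18.2%. The smallest region was 0.6 kb wide and the widest 10.2 kb. The median region of the genome was 3.2 kb wide.

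**Figure D2:**
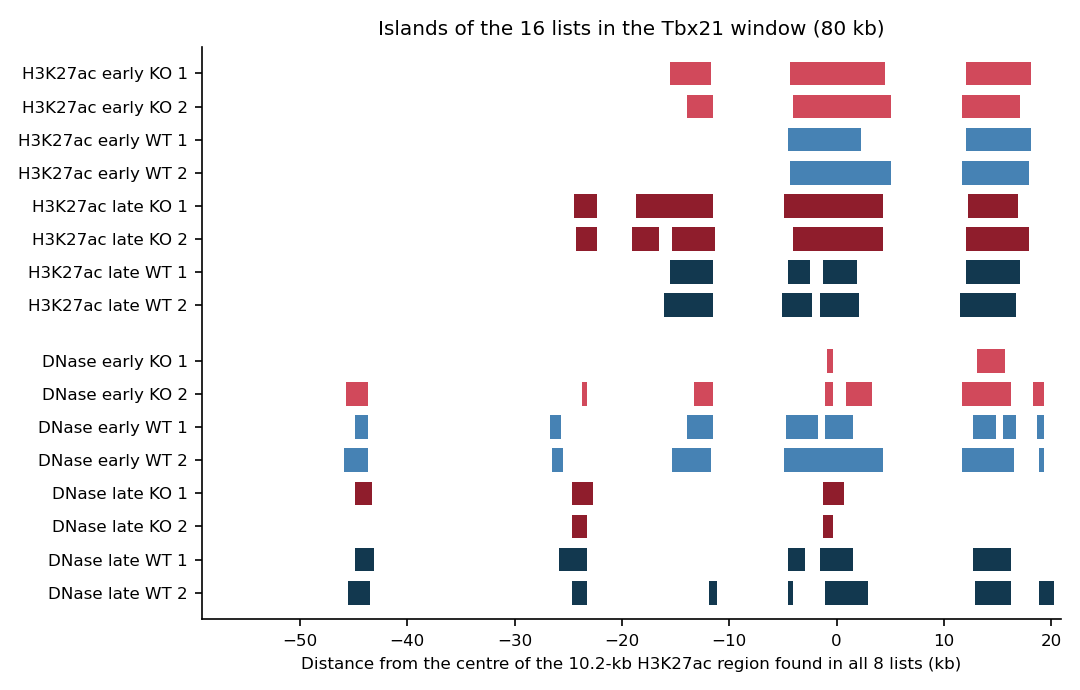
Islands of the 16 lists in the Tbx21 window, 1 row per list, placed by their distance in kb from the centre of the 10.2-kb region T3. The blocks at the centre and right stand in all 8 H3K27ac lists, the next H3K27ac block to the left (T2) is absent from both early WT lists, and the leftmost H3K27ac block (T1) stands in the late KO lists alone.

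Region T3, chr11:96984001-96994200, was the widest acetylated block at Tbx21 and was present in all 8 lists. It held 8.8 and 9.2 kb of islands in early KO, against 6.8 and 9.4 kb in early WT, and the groups overlapped. In late cells it held 9.2 and 8.4 kb in KO, against 5.2 and 6.4 kb in WT. The late lists did not overlap, with the WT islands broken into 2 pieces each. The part of T3 in the bin chr11:96990001-97000000 covered 3.4 and 3.4 kb in late KO, against 1.0 and 1.2 kb in late WT, and this did not pass (log2 difference 1.25, SE 0.41; limma, adjusted p = 0.196). Region T4, chr11:97000601-97007200, was also in all 8 lists. It held 6.0 and 5.4 kb in early KO and 6.0 and 6.2 kb in early WT, and in late cells 4.6 and 5.8 kb in KO and 5.0 and 5.2 kb in WT. Its bin, the one with the most H3K27ac coverage in the window, passed no comparison, and the log2 difference of KO over WT was -0.13 (SE 0.17) in early cells and -0.02 (SE 0.17) in late cells (limma, adjusted p = 0.726 and 0.988). Of all H3K27ac regions of the genome, 51.2% were in all 8 lists.

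Region T2, chr11:96970001-96977800, was where the early KO cells differed from the early WT cells. Its islands covered 3.8 and 2.4 kb in early KO, against 0 and 0 kb in early WT. In late cells they covered 7.2 and 6.6 kb in KO, against 4.0 and 4.6 kb in WT. Early WT was thus the group without an island here, and late WT had gained one. The bin chr11:96970001-96980000, which holds T2 whole, rose in early KO over early WT (limma, adjusted p = 0.000633), as did 9.17% of 39126 bins. The late difference, 6.9 ± 0.424 kb in KO and 4.3 ± 0.424 kb in WT (SD, n = 2 each), did not pass (log2 difference 0.59, SE 0.23; limma, adjusted p = 0.312). With time the bin rose in WT (limma, adjusted p = 0.000393), as did 9.54% of bins. It also rose with time in KO, by a log2 difference of 1.11 (SE 0.23; limma, adjusted p = 0.0367), as did 4.65% of bins, and this call was lost without any 1 of 6 of the 8 libraries, early KO replicate 1 and early WT replicate 2 being the exceptions (limma, adjusted p = 0.0534 to 0.162). The KO effect was smaller in late than in early cells (limma on the interaction, adjusted p = 0.00948), as it was in 6.18% of bins. Dropping the lower-scoring 50% of every list took most T2 islands away and ended the early KO call and the call with time in WT (limma, adjusted p = 0.975 and 1), and turned the interaction positive. The pattern of T2, both lists of every group but early WT, was that of 2.99% of H3K27ac regions.

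Region T1, chr11:96964601-96966800, appeared in late KO alone. It held 2.2 and 2.0 kb there, and 0 kb in the 2 lists of early KO, of early WT and of late WT. Its bin, chr11:96960001-96970000, entered the fit only through these 2 lists, so its calls add nothing to the kb above. They were for late KO over late WT (limma, adjusted p = 0.00105), as in 3.99% of bins, and for late over early KO (limma, adjusted p = 0.000738). The late minus the early KO effect was also called above 0 (limma on the interaction, adjusted p = 0.00287), as in 3.95% of bins. The bin could not be tested at equal list lengths, in the higher-scoring 50% of each list, or without either late KO library. Of all H3K27ac regions 1.05% were in both late KO lists and no other. Its islands ranked low in their lists, at the 4.00 and 11.9 percentiles by the authors' score.

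**Figure D3:**
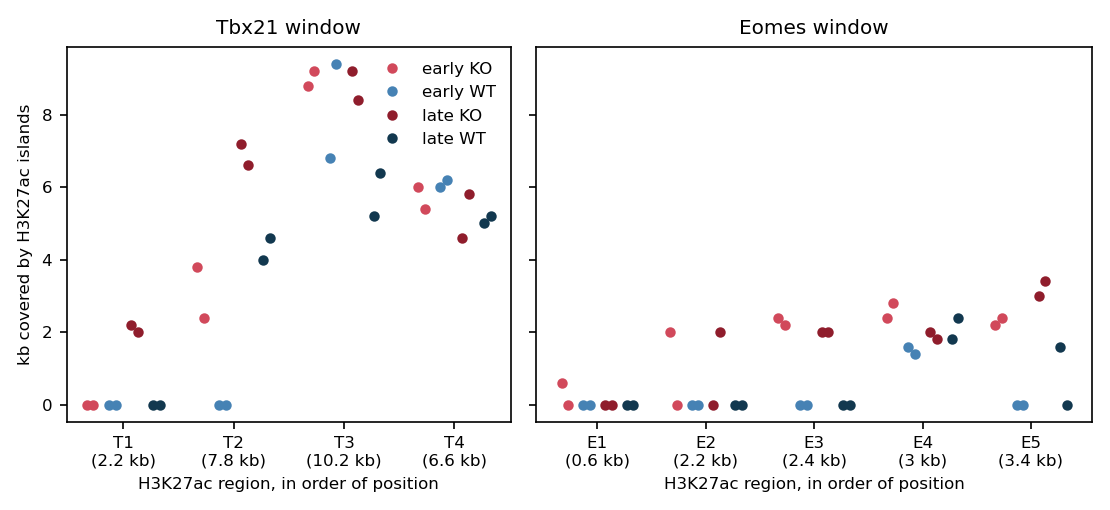
Kilobases covered by H3K27ac islands in each merged region of the Tbx21 window (T1 to T4) and the Eomes window (E1 to E5), with 1 point per list and the region's width under its name. T3, T4 and E4 are covered in every list, T2 in all but the early WT lists, T1 in late KO alone, and E3 in the 4 KO lists alone.

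At Eomes, H3K27ac was found in every list at region E4, chr9:118414801-118417800. It held 2.4 and 2.8 kb in early KO and 1.6 and 1.4 kb in early WT, and in late cells 2.0 and 1.8 kb in KO and 1.8 and 2.4 kb in WT. The early KO lists were above the early WT lists, and the late groups overlapped. Its bin, the most covered of the window, did not pass at either stage, with a log2 difference of KO over WT of 0.59 (SE 0.18) in early and -0.15 (SE 0.18) in late cells (limma, adjusted p = 0.091 and 0.858). In both early WT lists this was the one H3K27ac region of the 70 kb. Its islands ranked at the 64.4 to 74.4 percentiles of their lists, the highest of the window.

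Region E3, chr9:118396801-118399200, was in all 4 KO lists and no WT list. It held 2.4 and 2.2 kb in early KO, against 0 and 0 kb in early WT, and 2.0 and 2.0 kb in late KO, against 0 and 0 kb in late WT. Its bin, chr9:118390001-118400000, entered the fit only through the KO lists, and was called for KO over WT in early cells (limma, adjusted p = 0.000447) and in late cells (limma, adjusted p = 0.0011). The calls add nothing to the kb above, since a bin at 0 in all WT lists could pass that filter in no other way. Leaving out 1 library or changing the setting cannot add to this either, since the WT lists stayed at 0 kb in this bin. Both calls held under the 7 other settings that left an island there (limma, adjusted p of 0.00934 or less), and these rest on the same zeros. Dropping the lower-scoring part of every list left no E3 island, so the bin could not be tested that way. Of the 35909 H3K27ac regions, 731, or 2.04%, were in all 4 KO lists and no WT list, and 0.49% in all 4 WT lists and no KO list. The E3 islands ranked at the 9.83 to 28.8 percentiles of their lists.

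Region E5, chr9:118420601-118424000, was in all 4 KO lists and 1 WT list. It held 2.2 and 2.4 kb in early KO, against 0 and 0 kb in early WT, and 3.0 and 3.4 kb in late KO, against 1.6 and 0 kb in late WT. The KO lists were above the WT lists at both stages. Its bin, chr9:118420001-118430000, rose in early KO (limma, adjusted p = 0.0489), as did 9.17% of 39126 bins. With an island in 1 WT list, the bin met the filter of 2 lists only through its KO lists. The early call therefore adds nothing to the kb above, whether or not it held under other settings. The late difference did not pass (log2 difference 1.81, SE 0.60; limma, adjusted p = 0.209). Under the 7 other settings that tested it, the early call held in 3 (limma, adjusted p = 0.00557 to 0.0807 over the 7). The early call was lost without any 1 of the KO or early WT libraries (limma, adjusted p = 0.0985 to 0.17). Of all H3K27ac regions, 1.33% were in all 4 KO lists and 1 WT list. The other H3K27ac regions of the window were thinner in support. Region E2, chr9:118386401-118388600, held 2.0 kb in early KO replicate 1 and 2.0 kb in late KO replicate 2 and nothing in the other lists. Region E1, chr9:118365401-118366000, was a 0.6-kb island of early KO replicate 1 alone. Of all H3K27ac regions, 11.9% were in 1 list.

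**Figure D4:**
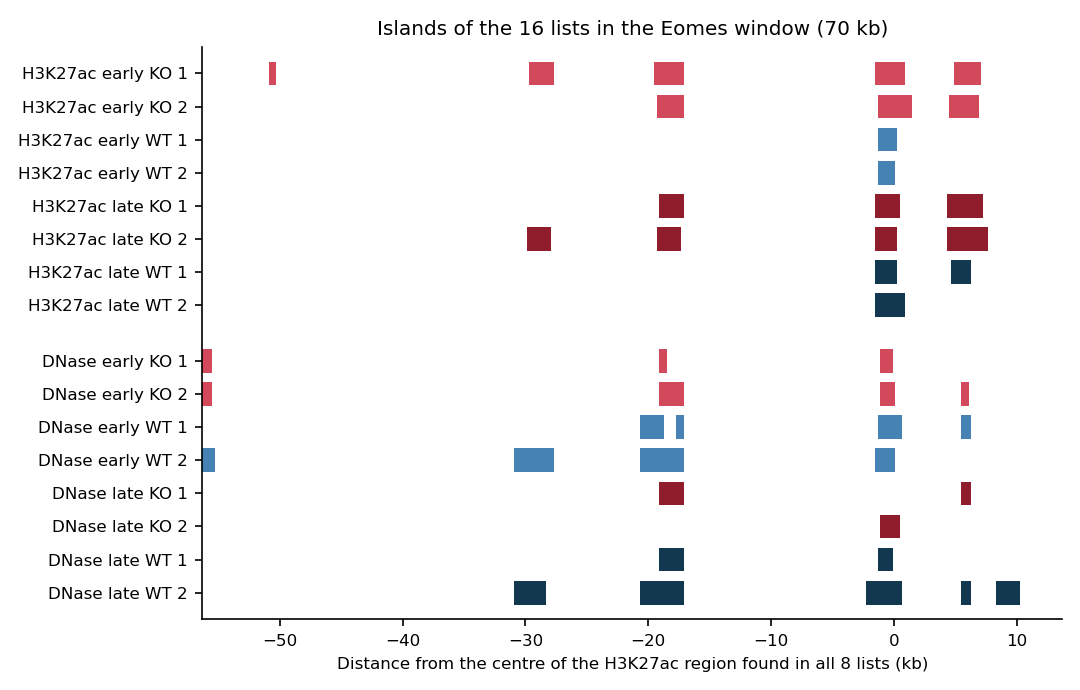
Islands of the 16 lists in the Eomes window, 1 row per list, placed by their distance in kb from the centre of region E4. E4 at the centre stands in all 8 H3K27ac lists, while the first H3K27ac blocks to its left that recur in the KO lists (E3) stand in no WT list, and those to its right (E5) stand in the 4 KO lists and 1 late WT list.

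Over both windows 9 of the 15 bins had H3K27ac islands in at least 2 lists and were tested. Of these, 3 had islands in KO lists alone, those of T1, E2 and E3. The bin of E5 had an island in 1 WT list, too few to enter without its KO lists. The called bins of the windows are therefore not counted up against the genome. When each stage was merged on its own, Tbx21 had 1 early region of 3 and 1 late region of 4 found in both KO and neither WT list. Eomes had 2 of 5 early regions and 1 of 4 late regions of this kind. Over the genome the share was 10.4% of early and 5.66% of late regions. Neither window had a region in both WT lists and neither KO list of a stage, a class of 4.20% of early and 4.07% of late regions.

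Change with time alone moved neither window total past the test. For H3K27ac at Tbx21 the log2 difference of late over early was 0.42 (SE 0.14) in KO and 0.12 (SE 0.14) in WT (limma, adjusted p = 0.104 and 0.596). At Eomes it was 0.02 (SE 0.27) in KO and 0.80 (SE 0.27) in WT (limma, adjusted p = 0.973 and 0.0778). Among tiles of the Tbx21 window's length, 13.5% passed with time in KO and 25.3% in WT, in either direction, and among those of the Eomes window's length 13.9% and 24.6%.

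DNase islands covered less of both windows in KO than in WT lists on average, as they did over the whole genome. In the Tbx21 window they covered 3.2 and 13.0 kb in early KO, against 14.2 and 21.2 kb in early WT, and 5.6 and 2.4 kb in late KO, against 12.6 and 13.4 kb in late WT. Early KO replicate 2 lay within the range of the WT lists. In the Eomes window they covered 2.4 and 4.6 kb in early KO, against 5.4 and 9.4 kb in early WT, and 2.8 and 1.6 kb in late KO, against 3.2 and 12.0 kb in late WT. Over both stages the difference did not pass at Tbx21, with 6.05 ± 4.83 kb in KO and 15.3 ± 3.95 kb in WT, or at Eomes, with 2.85 ± 1.27 kb in KO and 7.50 ± 3.95 kb in WT (SD, n = 4 each; exact two-sided permutation test, p = 0.0571 for each). The fit over tiles, which centres the libraries, called neither window at either stage. The log2 difference was -0.91 (SE 0.43) in early and -0.92 (SE 0.43) in late cells at Tbx21 (limma, adjusted p = 0.504 and 0.291), where 0.222% and 2.09% of tiles passed in either direction. At Eomes it was -0.56 (SE 0.46) and -0.74 (SE 0.46) (limma, adjusted p = 0.744 and 0.411), where 0.23% and 3.17% passed. Single libraries moved these values: at Tbx21 the early one was -0.24 without early KO replicate 1 and -1.57 without early KO replicate 2, and the late one -1.45 without late KO replicate 1 and -0.44 without late KO replicate 2. At Eomes the late one was -0.30 without late KO replicate 2, and it was -1.45 when replicate 1 of late WT was left out and 0.039 when replicate 2 of it was. Over all tiles of the Tbx21 window's length the median difference of KO over WT was 0.0074 in early and 0.049 in late cells. Over those of the Eomes window's length it was 0.0046 and -0.067. Over all 10-kb bins it was -0.09 and -0.17 after centring, and -0.34 and -0.53 without it. DNase differences of single bins, and coverage that is not centred, should be read against the bin shift. Cut to equal list lengths, the Tbx21 window held 3.25 ± 1.52 kb in KO and 8.20 ± 4.02 kb in WT, and the Eomes window 1.55 ± 0.90 kb in KO and 1.65 ± 1.25 kb in WT (SD, n = 4 each; exact two-sided permutation test, p = 0.0571 and 0.943). The Eomes difference was thus -0.10 kb at equal lengths, against -4.65 kb with all islands.

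Of the 12 DNase regions, 6 in each window, 1 was in more KO than WT lists and 9 were in more WT than KO lists. Over the 47976 DNase regions of the genome the shares were 10.4% and 56.8%. The most widely shared was chr11:96984201-96993400, inside T3, which was in all 8 lists, as were 27.3% of DNase regions. It held 0.6 and 3.2 kb in early KO, against 5.6 and 9.2 kb in early WT, and 2.0 and 1.0 kb in late KO, against 4.6 and 4.4 kb in late WT. The KO lists were below the WT lists at both stages, and in early WT its best islands ranked at the 90.6 and 95.0 percentiles. Its bin chr11:96980001-96990000 fell in early KO by 2.05 on the log2 scale (SE 0.36; limma, adjusted p = 0.049), as did 0.689% of 37586 bins. That call was lost when any 1 library was left out, as were the calls of all other DNase bins in this comparison. The bin's log2 difference was then -2.13 to -1.96. Under 1 of 8 other settings the call held (limma, adjusted p = 0.0198 to 0.214 over the 8).

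At T4, the DNase region chr11:97000801-97005800 was absent from the late KO lists. It held 2.6 and 4.6 kb in early KO, against 3.4 and 4.8 kb in early WT, and 0 and 0 kb in late KO, against 3.6 and 3.4 kb in late WT. H3K27ac at the same place was present in every list, late KO included. Its bin chr11:97000001-97010000, the one with the most DNase coverage of the window, fell in late KO below late WT (limma, adjusted p = 0.0153), as did 1.81% of bins, and below early KO (limma, adjusted p = 0.0162), as did 2.25% of bins. The first call was lost without any 1 of the 4 WT libraries, and the second without any 1 of the 4 early libraries. In each of these fits the calls of all other DNase bins in the same comparison were lost as well. Without the lower-scoring 50% of every list neither call held (limma, adjusted p = 0.168 and 0.575). At equal list lengths both held (limma, adjusted p = 0.00917 and 0.0115). The class of regions open in all WT and early KO lists and in 1 or no late KO list took in 11.7% of all DNase regions.

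The remaining Tbx21 DNase regions were in 4 to 7 lists. Region chr11:96943201-96946000 met no H3K27ac island and was in 2 KO and 4 WT lists. Region chr11:96962401-96966400, which overlaps T1, was in 3 KO and 4 WT lists. Within T1 itself, DNase islands covered 0 and 0.4 kb in early KO, against 0 and 0 kb in early WT, and 1.8 and 1.2 kb in late KO, against 1.2 and 1.2 kb in late WT, so late WT had DNase islands there without an H3K27ac island. Region chr11:96973801-96978000, in T2, was in 1 KO and 3 WT lists. It held 0 and 1.8 kb in early KO, against 2.4 and 3.6 kb in early WT, so that both early WT lists had DNase islands and no H3K27ac island in T2. Region chr11:97007401-97009400 lay beyond T4 and was in 1 KO and 3 WT lists.

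At Eomes 5 bins were tested in DNase and 0 were called in any of the 5 comparisons by limma. In late against early KO, 1 of the 5 bins had an unadjusted p under 0.05, as had 5465 of 37586 bins of the genome. Over the genome 1.23% of DNase bins were called for KO against WT in early and 2.16% in late cells, 2.45% with time in KO, 2.71% with time in WT and 0% for the interaction, where 5022 of 37586 bins had an unadjusted p under 0.05. Region chr9:118395601-118399200, which holds E3, was in 3 KO and 4 WT lists. It held 0.6 and 2.0 kb in early KO, against 2.6 and 3.6 kb in early WT, and 2.0 and 0 kb in late KO, against 2.0 and 3.6 kb in late WT. The stretch with H3K27ac islands in KO lists alone therefore carried DNase islands in every WT list. Among all 731 regions with H3K27ac in the 4 KO lists alone, 46.8% met a DNase island in some WT list and 13.8% in all 4, against 74.7% and 51.5% of all H3K27ac regions. Region chr9:118414001-118417000, at E4, was also in 3 KO and 4 WT lists. It held 1.0 and 1.2 kb in early KO, against 2.0 and 1.6 kb in early WT, and 0 and 1.6 kb in late KO, against 1.2 and 3.0 kb in late WT. The other Eomes regions were in 4 lists or fewer. Region chr9:118421801-118422600, in E5, was in 2 KO and 2 WT lists, and region chr9:118385401-118388600, at E2, in 0 KO and 2 WT lists. Region chr9:118359201-118361000, at the window edge, was in 2 KO lists and 1 WT list, and region chr9:118424601-118426600 in late WT replicate 2 alone.

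The assays met at most regions. Of the 9 H3K27ac regions 8 met a DNase region, and of the 12 DNase regions 8 met an H3K27ac region, E1 being the H3K27ac region that met none. At T2 the acetylated lists were 4 of KO and 2 of WT, and the lists with a DNase island 1 of KO and 3 of WT. At E3 they were 4 of KO and 0 of WT, and 3 of KO and 4 of WT. The 2 assays were made from separate libraries, and the replicate numbers do not tie a list of one to a list of the other.

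**Figure D5:**
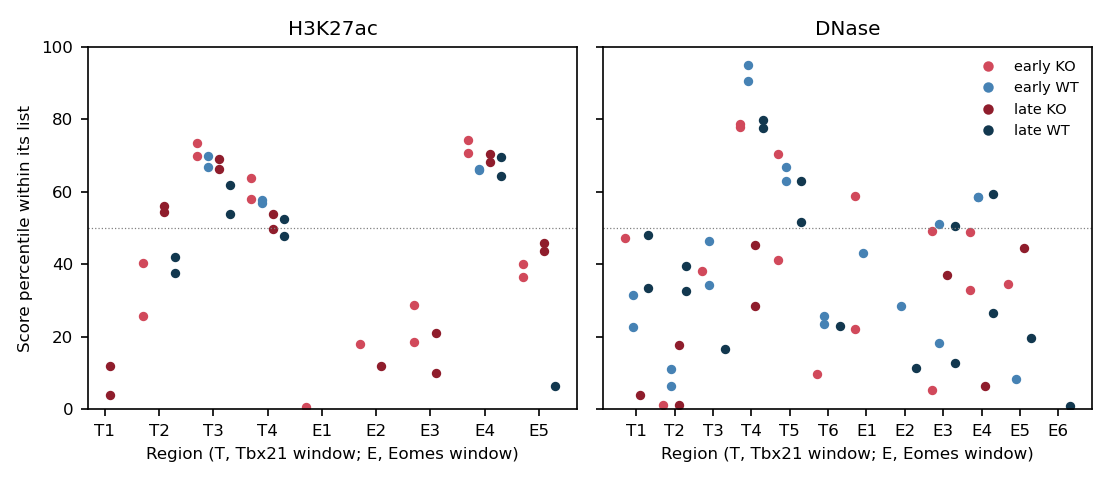
Percentile of the authors' score, within its own list, of the best island of each list in each region (H3K27ac left, DNase right), 1 point per list that holds the region, with a dotted line at the 50th percentile. T3 and E4 rank high in H3K27ac, while the islands of T1, E1, E2 and E3 all rank at the 28.8 percentile or lower.

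The H3K27ac regions spanned much of the score range of their lists. T3 ranked at the 54.0 to 73.5 percentiles by its best island and T4 at the 47.8 to 63.9. T2 ranked at the 25.6 to 56.1 and E5 at the 6.29 to 45.9 percentiles. In both late KO lists T2, at the 56.1 and 54.3 percentiles, ranked above T4, at the 49.7 and 53.8. The score is the authors' own and moves with depth, so it was used only to rank islands within a list.

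As a description of likeness, the 3 other tiles of the genome whose H3K27ac coverage followed each window most closely over the 8 libraries were found by Pearson's r. The points share the libraries and their centring, and no test was made. For Tbx21, among 9524 tiles, they were a tile on chromosome 18, whose position is not given here (r = 0.966), chr10:24530001-24610000 (r = 0.951) and chr16:52370001-52450000 (r = 0.949). The first averaged 4.1 kb in KO and 2.1 kb in WT in early cells, and 7.2 kb in KO and 2.4 kb in WT in late cells. For Eomes, among 10230 tiles, they were a tile on chromosome 18 (r = 0.985), chr5:44160001-44230000 (r = 0.984) and chr9:77970001-78040000 (r = 0.983). Its first tile averaged 5.3 kb in KO and 2.3 kb in WT in early cells, and 4.9 kb in KO and 3.1 kb in WT in late cells.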

How the data were processed

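H3K27ac ChIP-seq and DNase-seq lists of 16 libraries were used, 2 per assay, stage and genotype, grouped by the labels. ChIP used a commercial histone kit and DNase-seq a protocol for low cell numbers, per the labels' protocols. CASAVA 2.18, Bowtie2 and SICER 1.1 on mm9 are named in the submitters' processing notes, without their roles, and no control library is given in the sources used here. Each deposited list gives island positions and a score, the authors' own value from the caller, per library. Larger depth gives more and wider islands, and counts were not given. The members, lists and settings were chosen with earlier results of these data known.

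Kilobases covered by islands were summed in 10-kb bins and in tiles of each window's length and phase, over the whole genome. Tiles covered in at least 2 of 8 libraries were taken as log2(kb + 0.5), and libraries were centred on the median of tiles covered in all 8. The 4 groups of an assay were fitted together in R 4.3.3 by lmFit and trended eBayes of limma 3.58.1, and tiles with a Benjamini-Hochberg adjusted p under 0.05 over all tiles were called. Where all lists of a group were at 0 in a bin, kb are given and no fold, save in the additional observations below. Such a fold depends on the pseudocount, and its p rests on the spread shared across tiles. Regions are islands of the 8 lists (or of the 4 of a stage) merged where they overlapped or touched. Named bins were those called and the most covered of each window, and all regions were named. Totals over both stages were compared by exact two-sided permutation of 4 KO against 4 WT lists, ignoring stage. The fit was tested on simulated data in which no list was at 0 kb, so that test does not bear on bins with lists at 0. Scripts ran in Python 3.11.15 with pandas 2.3.3, numpy 2.4.6, scipy 1.17.1 and matplotlib 3.10.9.

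Without an mm9 annotation, other genes of the Th1 programme, cell type markers and the deletion in Bcl11b were not analysed here, nor were RNA levels.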

Additional observations from a re-analysis of the deposited data

Results flagged for a closer look

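The KO effect on H3K27ac differed between the early and late stages in a pair of neighbouring bins of the Tbx21 window, by the interaction term of the limma fit, and in opposite directions. In chr11:96960001-96970000 the coverage was 0 and 0 kb in early KO, against 0 and 0 kb in early WT, and 2.2 and 2.0 kb in late KO, against 0 and 0 kb in late WT. The late minus early KO effect was 2.38 (SE 0.22) on the log2(kb + 0.5) scale (limma, adjusted p = 0.00287). This bin entered the fit only through the 2 late KO lists, so the test adds nothing to those kb. In chr11:96970001-96980000 the coverage was 3.8 and 2.4 kb in early KO, against 0 and 0 kb in early WT, and 7.2 and 6.6 kb in late KO, against 4.0 and 4.6 kb in late WT. Here the late minus early KO effect was -2.19 (SE 0.33; limma, adjusted p = 0.00948). Both values depend on the pseudocount because lists of 1 or more groups were at 0. The second changed sign when the lower-scoring 50% of every list was dropped, to 3.56 (limma, adjusted p = 0.0019). Over all 39126 bins, 10.1% had an interaction past the threshold, in either direction.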

How the results depend on the processing

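Dropping the lower-scoring 50% of every list removes most islands of T2, E3 and E5 by construction. The Eomes H3K27ac window then gave 0.54 for KO minus WT in early cells (limma, adjusted p = 0.0803) and -0.13 in late cells, and -0.32 for late minus early KO. The Tbx21 H3K27ac window gave -0.057 for early KO minus WT and -1.34 for late minus early WT. The bin of T2 gave -0.038 for early KO minus WT and 3.56 for the interaction. The Tbx21 DNase window then passed for late KO minus WT at -3.23 (limma, adjusted p = 0.0248), and Eomes DNase gave -0.90 for late minus early WT and 0.65 for the interaction. The difference of 4 KO and 4 WT lists was 5.90 kb at Tbx21 and 0.45 kb at Eomes (exact permutation test, p = 0.0857 and 0.257), and early or late KO-alone regions numbered 0 at Eomes and 0 early at Tbx21.

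Equal list lengths left 0 late KO-alone regions at Tbx21. In Eomes DNase they gave 1.37 for late KO minus WT, 1.01 for late minus early KO, -0.77 for late minus early WT and 1.78 for the interaction, none past the threshold (limma, adjusted p of 0.494 or more). Without centring, the late Tbx21 H3K27ac difference passed at 0.58 (limma, adjusted p = 0.0486), Eomes late minus early KO was -0.067 in H3K27ac and late minus early WT -0.17 in DNase. Quantile normalization gave -0.034 for the same H3K27ac change, and fitting only the 2 groups compared gave -0.018. In that fit the late Eomes H3K27ac difference, 1.32, no longer passed (limma, adjusted p = 0.0661). Requiring at least 50% of a region covered gave 2 late KO-alone regions at Eomes.

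A replicate block, with replicate number as a covariate, kept the late Eomes H3K27ac difference at 1.32 with an adjusted p of 0.056 by limma. Deviations of same-numbered libraries correlated at -0.02 to 0.05, so the numbers were not taken as pairs. The block also ended the calls of the E5 bin in early KO, of the T2 bin with time in KO and of the early DNase bin at T3 (limma, adjusted p = 0.0683, 0.0711 and 0.0892). With the block, 0 of 37586 DNase bins were called for early KO against early WT.

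Leaving out 1 library at a time gave ranges, on the log2 scale, of 0.45 to 0.60 for late KO minus WT and -0.039 to 0.30 for late minus early WT in Tbx21 H3K27ac, and of 1.05 to 1.60 for late KO minus WT and -0.27 to 0.28 for late minus early KO in Eomes H3K27ac. In Tbx21 DNase they were -0.95 to 0.38 for late minus early KO and -0.68 to 0.65 for the interaction. In Eomes DNase they were -1.45 to 0.039 for late KO minus WT, -0.41 to 0.24 for late minus early KO, -0.76 to 0.79 for late minus early WT and -0.89 to 0.60 for the interaction. KO-alone regions ranged from 2 to 4 early at Eomes, 1 to 2 late at Tbx21 and 1 to 2 late at Eomes. Leaving out a library of the stage loosens the rule for such regions, which can raise their number anywhere in the genome. Shares over all regions are not given for these or the other KO-alone counts of this section, so none is read as a result. The early Eomes H3K27ac difference passed with each library left out in turn (limma, adjusted p = 0.00428 to 0.022). The permutation test was not repeated without a library, since 3 against 4 lists cannot pass at this threshold, and no interaction can be fitted with 2 groups. The cause of these changes was not tested, save that fewer islands or libraries were used. With 2 libraries per group and unknown depth, small differences were out of reach.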
